A study of Mus musculus with 12 samples.

Results

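Tead2 is a DNA-binding transcription factor that needs a coactivator such as Yap to switch on its target genes, and fusing it to a foreign domain fixes its activity in one direction. These results follow 9 genes that differed from control in opposite directions with the 2 kinds of fusion: Tead2-EnR, which carries the Engrailed repression domain, and Tead2-VP16, which carries the activation domain of a viral protein. The genes were Edn1, Gdnf, Gpr39, Rassf5, Ifrd1, Slc16a1, Gpat3, Stbd1 and Wfdc18. They were represented by 11 of the 34945 probe sets with exactly 1 gene symbol, and by 9 of the 18193 genes tested. Because they were chosen on both of these differences, the values in those comparisons are described here without a test.

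The cells were NIH3T3, an established line of mouse fibroblasts, infected with virus, and each of 6 groups had 2 arrays. Control-vector cells were taken at 30% confluency (low density) and at complete confluency. Tead2-EnR cells were taken at 30% of their own confluency, and Tead2-VP16 cells at complete confluency. Yap cells and a further set of Tead2-VP16 cells were taken as still proliferating cells just above the density at which normal cells are confluent, called high density here. All groups, controls included, had been infected with virus, and the promoter that drives each construct is not given in the sources used here. The sources used here do not say if replicate arrays were separate cultures, so p-values measure only the spread between these arrays, which may be technical. No control was grown at the high density, so there the effects of construct and density cannot be told apart. Tead2-EnR confluency was their own, and complete confluency of Tead2-VP16 cells need not be the cell density of confluent control. Density may therefore differ from control in those comparisons too, and its part was not tested. Changes are given as log2 differences of array intensity, first group minus second.

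Within groups, r across genes lay between 0.9976 and 0.9986, and no r between groups is given to set beside it. Median intensity lay between 51.9 and 53.7 on all arrays, which normalization by quantiles fixes in large part. Fibroblast markers were present. Of 12 fibroblast genes, 11 lay above the median gene (6.87 on the log2 scale), Fap at 3.81 being the exception, and their mean ranged from 11.03 in low-density control to 12.39 in confluent control. Above the median gene were 0 of 6 endothelial, 1 of 6 epithelial, 1 of 6 muscle, 1 of 4 measured adipocyte and 3 of 6 macrophage markers. The macrophage list stood at 6.45 to 6.47 in Tead2-EnR cells and at 5.92 to 6.05 elsewhere, and its genes did not move together. Lyz2, which encodes lysozyme, stood at 10.49 ± 0.03 with Tead2-EnR against 7.75 ± 0.06 in low-density control, and Cd14 at 8.77 ± 0.09 against 8.15 ± 0.04 (log2, SD, n = 2). Csf1r was at 7.01 against 6.94, and Ptprc (3.26 against 3.51), Cd68 (4.56 against 5.12) and Adgre1 (4.65 against 4.76) were below the median gene. The mean of 12 poly-A spike-in probe sets was 8.30 ± 0.08 in low-density control (log2, SD, n = 2) and between 8.43 and 8.80 in the other groups, and the transferrin receptor 3′ minus 5′ difference, a sign of RNA quality, ran from 0.978 ± 0.052 in low-density control to 1.501 ± 0.057 in confluent Tead2-VP16 cells. The part of these controls in the results below was not tested. In bulk samples, a lower level in every cell and fewer expressing cells cannot be told apart. The probe set of Tead2 itself stood at 9.62 in low-density control, 9.83 with Tead2-EnR, 9.88 in confluent control and 9.76 with Tead2-VP16. The Yap1 probe sets stood at 8.76 and 9.66 in Yap cells against 8.87 and 9.96 in confluent control. Whether these probes lie within the introduced constructs is not known, so these levels do not check the labels.

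By function the set is mixed. Edn1 encodes the precursor of endothelin 1, a vasoconstrictor and growth-promoting peptide, and Gdnf a neurotrophic factor; both are secreted ligands. Gpr39 is a zinc-sensing receptor coupled to G proteins. Rassf5 binds Ras and Rap1 and also the Mst kinases of the Hippo pathway, which restrains Yap, and Ifrd1 is a transcriptional coregulator that works with the Sin3 and histone deacetylase complex. Slc16a1 (MCT1) carries lactate and pyruvate across the cell membrane, Gpat3 adds the first fatty acid to glycerol 3-phosphate in triacylglycerol synthesis, and Stbd1 binds glycogen. Wfdc18 is a small secreted protein of the whey acidic protein family.

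Tead factors bind the core GGAATG, so the 250 bases before each RefSeq start (build GRCm38.p6) were searched for it on both strands, and for the AP-1 motif TGANTCA, since AP-1 factors often bind beside Tead. All 9 genes had a promoter in the table, 10 promoters in all because Gdnf had 2. The Tead core was found before Edn1 and Ifrd1, against 12.6% of all 32851 promoters of that length, and the AP-1 motif before Gpr39, against 6.75%. The motifs do not overlap in these sequences. The promoters with a motif are shown, and that of Wfdc18, the gene with the opposite response, beside them. Capitals mark the motif: positions -207 to -202 from the start for Edn1 (CATTCC, the core on the opposite strand), -146 to -141 for Ifrd1 and -133 to -127 for Gpr39, and Wfdc18 has neither. A match describes these letters and does not show binding. Edn1 lies at chr13:42301226-42301475 (plus strand), Ifrd1 at chr12:40223190-40223439 (minus strand), Gpr39 at chr1:125676746-125676995 (plus strand) and Wfdc18 at chr11:83708754-83709003 (plus strand).
Edn1: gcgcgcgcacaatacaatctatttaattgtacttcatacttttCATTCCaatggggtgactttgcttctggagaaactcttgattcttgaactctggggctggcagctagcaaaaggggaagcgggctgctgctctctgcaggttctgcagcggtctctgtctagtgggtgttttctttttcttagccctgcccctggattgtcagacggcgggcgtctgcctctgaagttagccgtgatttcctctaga
Ifrd1: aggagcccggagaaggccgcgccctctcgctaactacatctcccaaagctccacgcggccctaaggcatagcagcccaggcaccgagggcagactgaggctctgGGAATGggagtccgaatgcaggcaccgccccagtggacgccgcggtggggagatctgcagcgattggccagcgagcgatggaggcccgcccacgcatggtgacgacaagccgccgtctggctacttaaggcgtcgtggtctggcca
Gpr39: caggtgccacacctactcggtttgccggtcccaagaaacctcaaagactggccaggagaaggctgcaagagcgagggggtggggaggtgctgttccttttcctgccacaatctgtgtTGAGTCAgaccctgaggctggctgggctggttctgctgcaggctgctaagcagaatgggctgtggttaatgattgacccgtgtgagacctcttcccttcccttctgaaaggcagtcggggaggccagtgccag
Wfdc18: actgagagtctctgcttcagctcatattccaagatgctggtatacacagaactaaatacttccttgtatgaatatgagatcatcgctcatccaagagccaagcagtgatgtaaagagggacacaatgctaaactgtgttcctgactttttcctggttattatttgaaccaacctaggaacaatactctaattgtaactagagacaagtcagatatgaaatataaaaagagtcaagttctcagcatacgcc

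Within the whole table, 402 genes were called lower with Tead2-EnR and higher with Tead2-VP16 (2.21% of genes), and 462 the other way round (2.54%). A gene was called where limma's Benjamini-Hochberg adjusted p was below 0.05. When the 402 genes were ranked by the smaller of their 2 changes, 8 of the first 10 were the genes described here, from Edn1 at 1.20 to Stbd1 at 0.87 (log2). Ccl7 (0.96) and Cth (0.95), also among those 10, were not chosen, and Itga6 followed Stbd1 at 0.85. On the other side, Wfdc18 (1.49) was second to Sned1 (1.53), with Ptx3 (1.20) next. Tead2-EnR cells had 18.1% of all genes called lower and 20.3% higher than control, and Tead2-VP16 cells at complete confluency 5.06% higher and 4.92% lower. Of genes called in that second comparison 50.7% were higher, and 68.6% were with arrays centred on their medians. All 9 genes were called in both, which the choice of genes fixes. No overlap of arrays was found in any of the 9 either, where 32.4% of all genes were lower and 31.7% higher without overlap with Tead2-EnR, and 23.8% higher and 28.6% lower with Tead2-VP16.

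**Figure D1:**
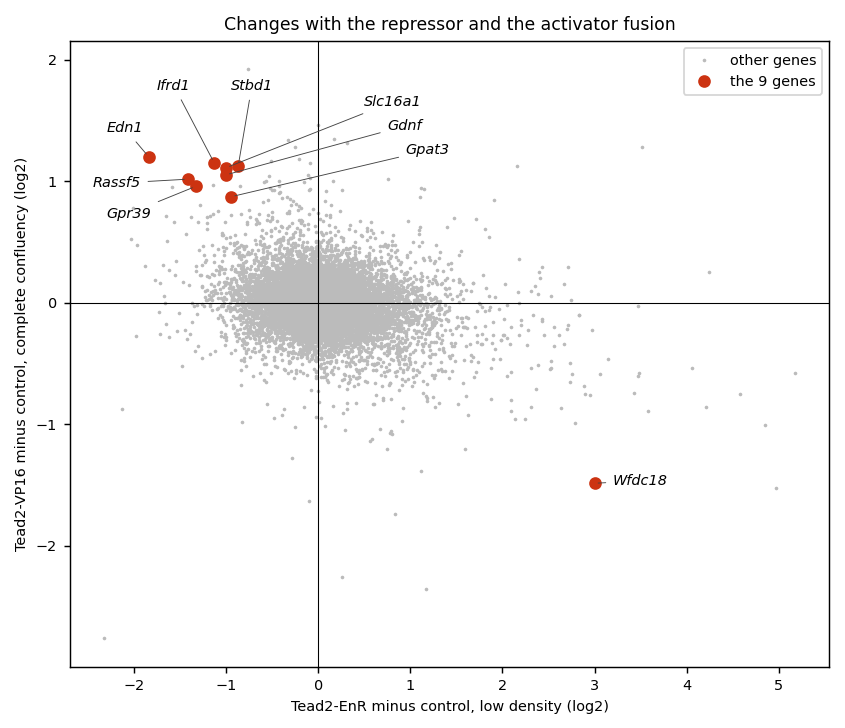
Log2 difference between Tead2-EnR and control at low density (horizontal) and between Tead2-VP16 and control at complete confluency (vertical), 1 grey point per gene and red points for the 9 genes. 8 of them sit at the upper left, with Edn1 at -1.84 and 1.20, and Wfdc18 sits at the lower right at 3.0 and -1.49.

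**Figure D2:**
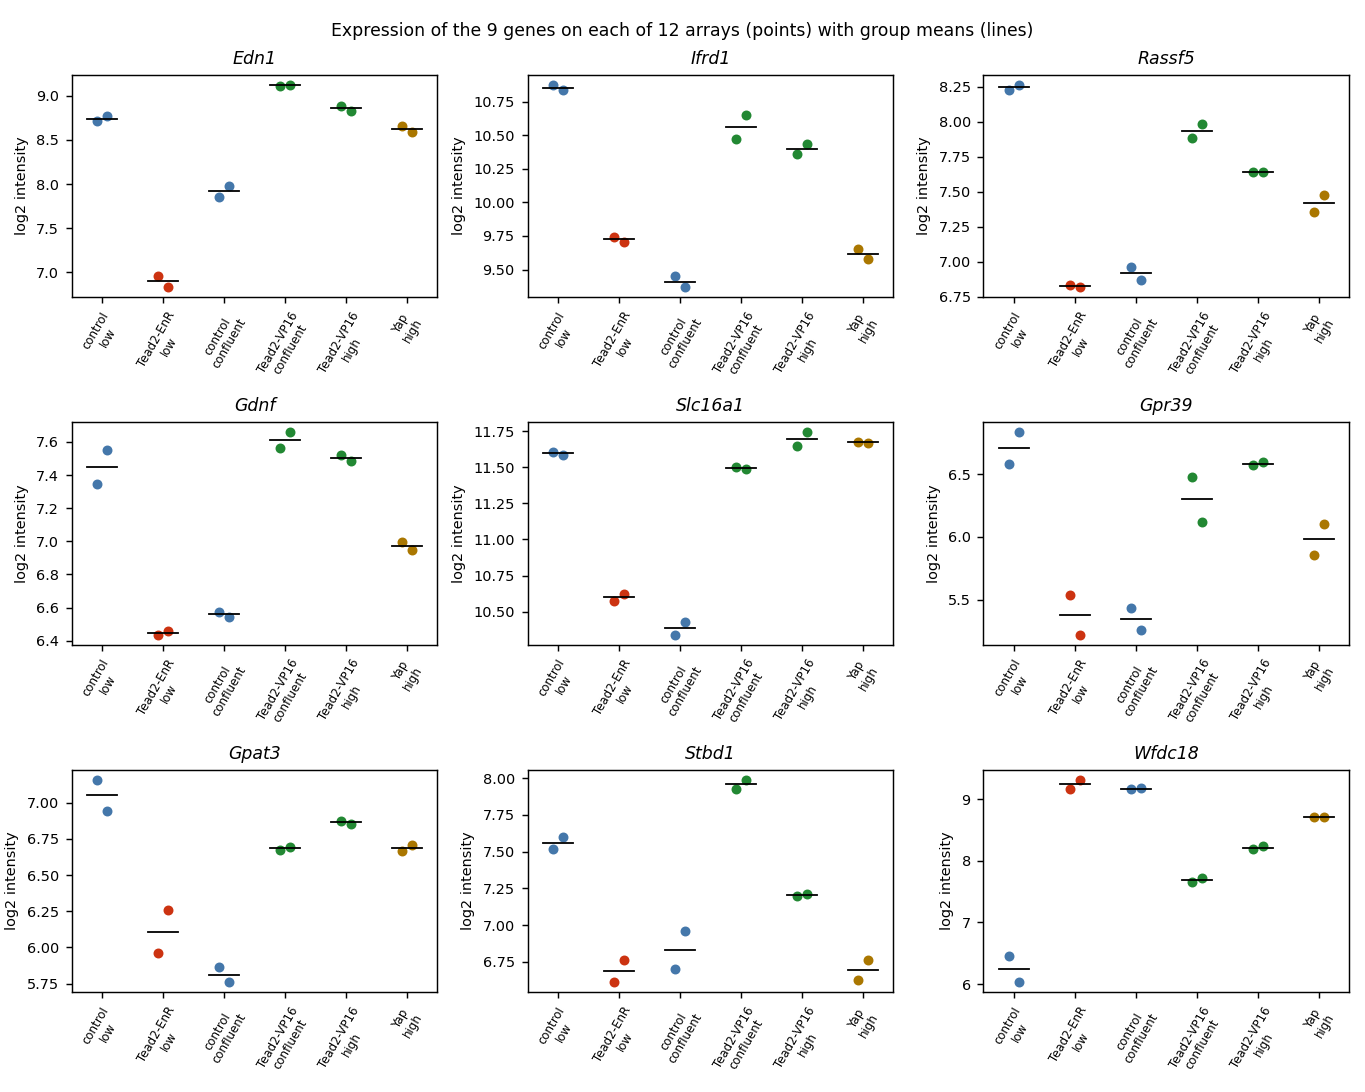
Log2 intensity of each gene on every array (points, 2 per group) with the group mean (line), on a scale of its own for each gene. In 8 panels the low-density control and both Tead2-VP16 groups lie above Tead2-EnR and confluent control, and the Wfdc18 panel is the reverse.

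Edn1 had the largest difference with Tead2-EnR of the 8 genes that were lower. Its log2 intensity was 8.71 and 8.77 in low-density control, and 6.96 and 6.83 with Tead2-EnR. At complete confluency control arrays read 7.86 and 7.98 and Tead2-VP16 arrays 9.11 and 9.12. At high density Tead2-VP16 gave 8.88 and 8.83 and Yap 8.66 and 8.59. No groups overlapped, and confluent Tead2-VP16 cells were highest and Tead2-EnR cells lowest. The difference from control was -1.84 ± 0.07 (SE of the fit), or 3.58-fold lower, with Tead2-EnR and 1.20 ± 0.07, or 2.30-fold higher, with Tead2-VP16. Tead2-EnR took Edn1 1.02 below even the confluent control, further than in any other of the 8 genes.

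Gdnf, the second ligand, had a narrower range. Low-density control arrays read 7.34 and 7.55 and Tead2-EnR arrays 6.44 and 6.46. In confluent cells the values were 6.58 and 6.54 for control and 7.56 and 7.66 for Tead2-VP16, and at high density 7.52 and 7.49 for Tead2-VP16 and 7.00 and 6.95 for Yap. Only low-density control and high-density Tead2-VP16 overlapped, and Yap stood between the high and the low groups. The differences were -1.0 ± 0.07 with Tead2-EnR and 1.05 ± 0.07 with Tead2-VP16 (SE), close to 2-fold each.

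Gpr39 was one of 2 of the genes, with Gpat3, whose mean lay below the median gene, and its arrays spread more. Control read 6.58 and 6.83 at low density and 5.43 and 5.25 at confluency. Tead2-EnR gave 5.54 and 5.22. Tead2-VP16 gave 6.48 and 6.12 at confluency and 6.57 and 6.60 at high density, and Yap gave 5.86 and 6.10. The Tead2-EnR arrays enclosed both confluent control arrays, and the low-density control arrays overlapped those of high-density Tead2-VP16. Gpr39 was lower by 1.33 ± 0.15 with Tead2-EnR, from 6.71 to 5.38 (a difference of -1.33 on the log2 scale), and higher by 0.96 ± 0.15 with Tead2-VP16 (SE).

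Rassf5 was read by 2 probe sets with the same order of groups. On the brighter, low-density control arrays were at 8.22 and 8.26 and Tead2-EnR arrays at 6.84 and 6.82. Confluent control arrays were at 6.96 and 6.87 and confluent Tead2-VP16 arrays at 7.89 and 7.98. At high density Tead2-VP16 stood at 7.64 on both arrays and Yap at 7.36 and 7.48. No groups overlapped here. Tead2-EnR differed from control by -1.42 ± 0.06 and Tead2-VP16 by 1.02 ± 0.06 (SE), and the second probe set gave -1.64 ± 0.10 and 1.19 ± 0.10.

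Ifrd1 was well above the median gene in every group. Low-density control was highest, at 10.88 and 10.83, and Tead2-EnR cells read 9.74 and 9.71. Confluent control read 9.45 and 9.37 and confluent Tead2-VP16 10.47 and 10.65. Values at high density were 10.36 and 10.43 with Tead2-VP16 and 9.65 and 9.58 with Yap. No groups overlapped, and the Yap arrays were nearer to confluent control than to either Tead2-VP16 group. The differences were -1.13 ± 0.07 (2.19-fold lower) with Tead2-EnR and 1.15 ± 0.07 (2.22-fold higher) with Tead2-VP16 (SE).

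Slc16a1 had nearly one level in 4 groups and a lower one in the other two. Its main probe set read 11.60 and 11.59 in low-density control, 11.50 and 11.49 with Tead2-VP16 at confluency, 11.65 and 11.74 with Tead2-VP16 at high density and 11.68 and 11.67 with Yap. Tead2-EnR arrays were at 10.57 and 10.62 and confluent control arrays at 10.34 and 10.43. Tead2-EnR differed by -0.999 ± 0.056 and Tead2-VP16 by 1.11 ± 0.06 (SE). A second probe set read between 3.35 and 4.11 on all 12 arrays, well below the median gene. It showed differences of -0.12 ± 0.19 and 0.06 ± 0.19, so that the mean of both probe sets gave -0.56 and 0.59.

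Gpat3 read 7.16 and 6.95 in low-density control and 5.96 and 6.26 with Tead2-EnR. Confluent control was at 5.87 and 5.76 and confluent Tead2-VP16 at 6.67 and 6.70. High-density cells were at 6.88 and 6.86 with Tead2-VP16 and 6.67 and 6.71 with Yap. Only Yap and confluent Tead2-VP16 overlapped, and Tead2-EnR stayed above confluent control. The differences were -0.94 ± 0.10 with Tead2-EnR and 0.87 ± 0.10 with Tead2-VP16 (SE).

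Stbd1, with Edn1, was a gene in which confluent Tead2-VP16 cells stood clearly above low-density control, here by 0.40 ± 0.09 (SE). The arrays read 7.52 and 7.60 in low-density control, 6.61 and 6.77 with Tead2-EnR, and 6.70 and 6.96 in confluent control. Tead2-VP16 gave 7.93 and 7.99 at confluency but 7.20 and 7.21 at high density, and Yap gave 6.62 and 6.77. Yap overlapped with Tead2-EnR and with confluent control. The differences were -0.87 ± 0.09 with Tead2-EnR and 1.13 ± 0.09 with Tead2-VP16 (SE).

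Wfdc18 was the reverse of the others. Low-density control arrays read 6.46 and 6.03 and Tead2-EnR arrays 9.17 and 9.32, and confluent control arrays 9.17 and 9.19. Tead2-VP16 gave 7.65 and 7.73 at confluency and 8.20 and 8.24 at high density, and Yap gave 8.71 on both arrays. Tead2-EnR at low density overlapped with confluent control, and low-density control lay far below every other group. The level was 8.0-fold higher with Tead2-EnR (3.0 ± 0.12) and 2.80-fold lower with Tead2-VP16 (-1.49 ± 0.12, SE). Its only probe set is of the _s_at type, which can match several transcripts.

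The density step in control cells is described next, since it shares arrays with both comparisons that chose the genes, and it is therefore given without a test. From low density to complete confluency the same 8 genes were lower with no overlap of arrays, as were 35.1% of all genes, by 0.73 (Stbd1) to 1.45 (Ifrd1), given as differences of -0.73 and -1.45. Wfdc18 was higher by 2.93, where 35.2% of genes were higher without overlap. In sparse Tead2-EnR cells Rassf5, Gdnf, Gpr39, Stbd1 and Wfdc18 stood within 0.20 of confluent control, at -0.09, -0.11, 0.04, -0.14 and 0.07, with the arrays overlapping for Gpr39, Stbd1 and Wfdc18. Ifrd1 (0.32) and Slc16a1 (0.21) stood above it without overlap, as did 31.3% of all genes, and so did Gpat3 (0.30). Edn1, Rassf5 and Gdnf were below it without overlap, as were 32.6% of all genes. Confluent Tead2-VP16 cells differed from low-density control by 0.38 in Edn1, 0.40 in Stbd1 and 0.16 in Gdnf, and by -0.10 in Slc16a1, -0.29 in Ifrd1, -0.31 in Rassf5, -0.37 in Gpat3 and -0.41 in Gpr39, all without overlap, where 33.8% of all genes were higher and 37.1% lower. Wfdc18 stood 1.44 above low-density control there. Over the 8 genes the median was -0.20 for that difference and -1.23 for confluent against low-density control, beside medians of -0.03 and -0.01 over all genes. In each gene the gap between these differences equals its Tead2-VP16 difference from confluent control, on which the genes were chosen. The choice therefore fixes that gap. It also favours genes that were lower in confluent than in low-density control, so these values are not separate results.

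Proliferating cells at high density were compared with confluent control, again as a description because the control arrays are shared. Tead2-VP16 at high density was above confluent control without overlap in all 8 genes, against 31.6% of all genes, with a median difference of 0.97, beside 0.01 over all genes. Slc16a1 (1.31), Gpr39 (1.24) and Gpat3 (1.05) were largest and Stbd1 (0.37) smallest. Yap was above confluent control without overlap in 7 of the 8 genes, against 29.2% of all genes, with a median of 0.57, beside -0.003 over all genes. The Yap differences ran from 1.29 in Slc16a1 and 0.88 in Gpat3 to 0.21 in Ifrd1, and Stbd1 overlapped at -0.14. Wfdc18 was lower than in confluent control with both constructs, at -0.96 with Tead2-VP16 and -0.47 with Yap, where 29.1% and 31.9% of all genes were lower without overlap. Between the Tead2-VP16 groups, confluent cells differed from high-density cells by 0.75 in Stbd1 and -0.53 in Wfdc18. On the brightest probe set of each gene, the other 7 genes differed by at most 0.30 in either direction. The second probe set of Rassf5 gave 0.35. On those brightest probe sets, arrays of the Tead2-VP16 groups did not overlap in any of the 9, with 5 higher and 4 lower at confluency, where 27.1% and 33.1% of all genes were.

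Against low-density control, the Yap cells were lower without overlap in 7 of the 8 genes, where 33.3% of all genes were lower and 33.4% higher. The differences ran from -1.24 in Ifrd1, -0.86 in Stbd1 and -0.83 in Rassf5 to -0.36 in Gpat3 and -0.11 in Edn1, and Slc16a1 was 0.08 higher. High-density Tead2-VP16 cells were nearer to that control. Without overlap 4 of the 8 were lower, Rassf5 (-0.61), Ifrd1 (-0.46), Stbd1 (-0.35) and Gpat3 (-0.19), and 2 were higher, Edn1 (0.12) and Slc16a1 (0.10), where 31.2% and 34.9% of all genes were. Gdnf (0.06) and Gpr39 (-0.12) overlapped. Wfdc18 was higher by 2.46 with Yap and 1.97 with Tead2-VP16.

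Yap against Tead2-VP16 at high density was the one comparison between arrays that the choice of genes had not used, and it was tested over all genes. The spread in that test came from all 12 arrays, among them those that chose the genes. The genes were also chosen on a difference with Tead2-VP16, at complete confluency, so the test is not independent of the choice. Ifrd1, Gdnf and Stbd1 were lower with Yap: Ifrd1 by 0.78, from 10.40 to 9.61 (difference -0.78, 95% interval of the fit -0.94 to -0.63, adjusted p = 0.00078 by limma), Gdnf at -0.53 (-0.69 to -0.37, adjusted p = 0.0061 by limma) and Stbd1 at -0.51 (-0.72 to -0.30, adjusted p = 0.023 by limma). These are 3 of 9 genes. Of all 18193 genes 2.02% were called, with 1.08% of all genes lower and 0.934% higher. None of the 9 was called higher in the main fit. Both arrays of Yap were below both of Tead2-VP16 for each of the 3 called genes. In a fit of the 4 arrays of this comparison alone, the adjusted p by limma was 0.036 for Ifrd1, 0.046 for Gdnf and 0.067 for Stbd1. Wfdc18 was called higher with Yap in that fit, at an adjusted p that rounds to 0.05 by limma. Of called genes 46.3% were higher with Yap, and 31.3% with arrays centred on their medians. The call of Ifrd1 was kept without any 1 of the 4 arrays, whereas Gdnf lost it without the first Tead2-VP16 array (adjusted p = 0.064 by limma) or the second Yap array (0.069), and Stbd1 without any of the 4 (0.083 to 0.18) and in a fit of these 4 arrays alone (0.067).

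The other 6 genes did not pass the test in this comparison in the main fit. The difference was -0.60 in Gpr39 (-0.94 to -0.27, adjusted p = 0.083 by limma), -0.23 in Edn1 (-0.38 to -0.08, 0.13) and -0.22 in Rassf5 (-0.36 to -0.08, 0.12), with no overlap of arrays. It was -0.18 in Gpat3 (-0.40 to 0.045, adjusted p = 0.48 by limma), also without overlap. In Slc16a1 the arrays overlapped and the difference was -0.02 (-0.15 to 0.10, adjusted p = 0.92 by limma). Wfdc18 was at 0.49 (0.23 to 0.75, adjusted p = 0.07 by limma). The intervals are for single genes and are not adjusted for the number of genes. In total the Yap arrays lay below the Tead2-VP16 arrays without overlap in 7 of the 8 genes, as in 27.5% of all genes, and above them in Wfdc18, as in 18.7%.

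**Figure D3:**
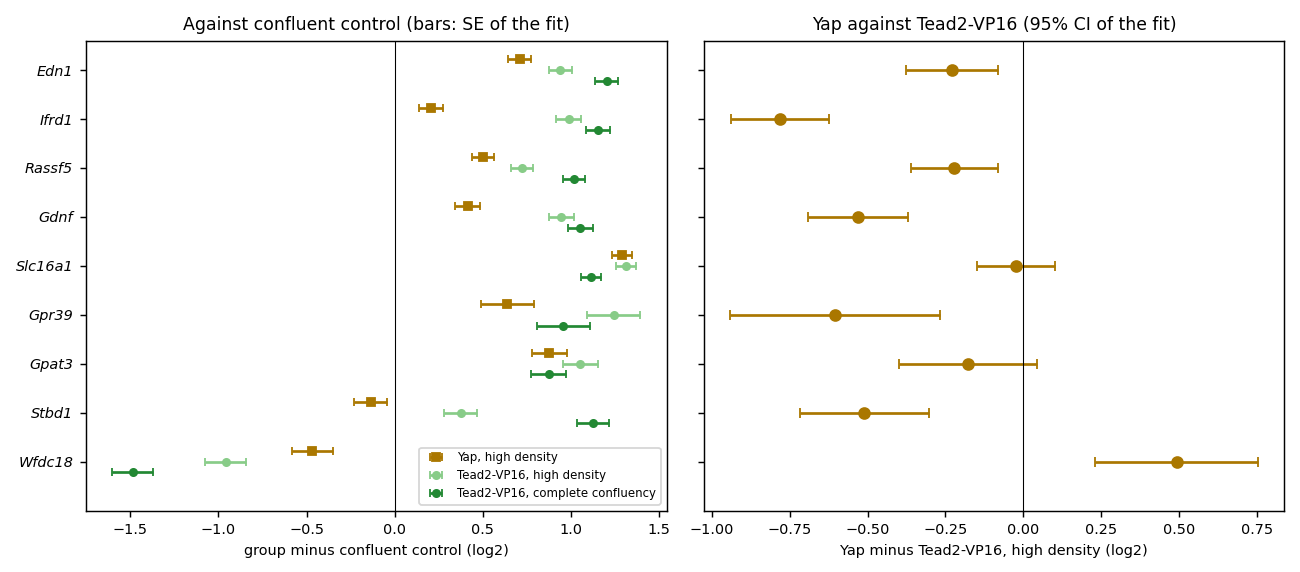
Left, log2 difference from confluent control for each gene in Yap cells (squares) and in Tead2-VP16 cells at either density (circles), with the SE of the fit. Right, Yap minus Tead2-VP16 at high density with its 95% interval, which lies wholly below 0 for Ifrd1 (-0.94 to -0.63) and spans 0 for Slc16a1 (-0.15 to 0.10).

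The genes resembled each other in pattern, as the choice had fixed in part. Over the 6 group means, Pearson's r between pairs of the 8 genes ran from 0.49 to 0.96 with a median of 0.85, and Wfdc18 had r between -0.95 and -0.63 with them. These are descriptions over 6 points that share arrays and normalization. Among 5349 other genes above the median level whose group means ranged over at least 0.5, those most like Gdnf were Nid1, the basement membrane protein nidogen 1 (r = 0.985), and Itga6, a laminin-binding integrin (0.979). The nearest to Edn1 were Eps8 (0.966) and Gpd2 (0.954), and to Ifrd1 Foxn2 (0.966) and Sgms2 (0.959). Rassf5 was followed most closely by Ppargc1b (0.984) and Trim16 (0.975), and Slc16a1 by Lhfpl2 (0.972) and Atp10d (0.959). Msn, which encodes moesin, a linker of actin to the membrane, was the nearest gene to both Gpr39 (0.995) and Gpat3 (0.970), followed by Shb (0.978) and by Pdgfa, a ligand of the PDGF receptors (0.968). Stbd1 was nearest to Apcdd1 (0.977) and Raph1 (0.974), and Wfdc18 to Cox20 (0.985) and Tax1bp3 (0.980).

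Partners and relatives of the 9 genes were then examined in 10 lists of 126 genes, 117 of them measured by a probe set of 1 symbol and none of them among the 9. With Tead2-EnR 29 rose and 18 fell, 40.2% of them, beside 38.4% of all genes called. With Tead2-VP16 at confluency 7 rose and 7 fell, 12%, beside 9.98% of all genes. Between Yap and Tead2-VP16 at high density 2 relatives were called, Rassf3 (-0.45) and Emb (-0.34), both lower with Yap, or 1.71% beside 2.02%. These shares are near those of all genes. The relatives called in opposite directions by the fusions, named after their values were seen, were 8 of 117. In the direction of the 8 genes there were 2, or 1.71%, beside 2.21% of all genes, and in that of Wfdc18 there were 6, or 5.13%, beside 2.54%. Rassf1 (-0.27 with Tead2-EnR and 0.34 with Tead2-VP16) and Slc39a6 (-0.68 and 0.27) followed the direction of the 8 genes, and Slpi (2.62 and -0.27), Wfdc12 (1.04 and -0.65), Wfdc17 (0.81 and -0.37), Slc16a9 (1.05 and -0.39), Ldhb (0.23 and -0.25) and Pgm2 (0.15 and -0.34) that of Wfdc18.

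In the lists below, the share called is to be read beside the 38.4% of all genes called with Tead2-EnR (20.3% higher and 18.1% lower) and the 9.98% with Tead2-VP16 (5.06% higher and 4.92% lower). Of 6 measured genes of the endothelin system, 2 rose and 1 fell with Tead2-EnR, or 50%. Ece2, a converting enzyme that cleaves the endothelin precursor, fell by 0.80 (difference -0.80), Edn2 rose by 1.03 at a low level and Ece1, the other converting enzyme, rose by 0.23. With Tead2-VP16 Ece1 was the 1 gene called, rising by 0.76, and 0 fell, or 16.7%. The list medians were -0.001 with Tead2-EnR and 0.09 with Tead2-VP16 (log2), beside -0.01 over all genes in each comparison. Of 10 GDNF-family ligands and receptors 0 were called by limma with Tead2-EnR (1 at an unadjusted p below 0.05), Ncam1 being at 0.03 and Sdc3 at -0.05, and 1 with Tead2-VP16, Pspn at 0.27 (adjusted p = 0.045 by limma), or 10%. The list medians were 0.01 and -0.01. Among 6 receptors related to Gpr39, Ntsr2 fell with Tead2-EnR (-0.31) and 0 were called by limma with Tead2-VP16 (0 at an unadjusted p below 0.05), where Nmur1 was at 0.10 and Ntsr2 at 0.06; the list medians were 0.00 and -0.03. Of 13 zinc handling genes 1 rose and 4 fell with Tead2-EnR, or 7.69% and 30.8% beside 20.3% and 18.1% of all genes. The total share of 38.5% was near that of all genes (38.4%). Among the 4 were the zinc importers Slc39a10 (-0.87), Slc39a6 (-0.68) and Slc39a14 (-0.85). With Tead2-VP16 Slc39a6 (0.27) and Slc30a4 (0.25) rose and the exporter Slc30a1 fell (-0.30), or 23.1%. The medians of that list were -0.09 and 0.00.

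The next list held 13 measured genes: Rassf family members, the Mst kinase Stk4, Sav1, Rap1a and Rap1b. With Tead2-EnR 4 rose and 1 fell, or 30.8% and 7.69% beside 20.3% and 18.1% of all genes (38.5% beside 38.4% in total). Rassf3 was at 0.51, Rassf7 at 0.35 and Rassf1 at -0.27. With Tead2-VP16 2 rose, Rassf8 (0.39) and Rassf1 (0.34), or 15.4% beside 9.98%. The medians were 0.15 and 0.06. The corepressor list had 9 measured genes, namely Sin3a, Sin3b, Hdac1, Hdac2, Hdac3, Rbbp4, Rbbp7, Sap30 and Ifrd2, with no Ncor gene among them. With Tead2-EnR 1 rose and 3 fell (11.1% and 33.3%, beside 20.3% and 18.1% of all genes). The 3 were Ifrd2, the closest relative of Ifrd1 (-1.14), Sap30 (-0.37) and Hdac2 (-0.19). With Tead2-VP16 0 were called by limma (3 at an unadjusted p below 0.05), and Rbbp4 was at 0.00 and Rbbp7 at 0.20. The list medians were -0.05 and 0.00.

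Of 16 genes for monocarboxylate transport and lactate, 4 rose and 3 fell with Tead2-EnR (43.8% beside 38.4% of all genes), including Emb, the partner protein embigin of these transporters (1.21), Slc16a9 (1.05) and Slc16a6 (-0.94), and 2 fell with Tead2-VP16 (12.5% beside 9.98%), Ldhb (-0.25) and Slc16a9 (-0.39). The medians were -0.02 and -0.07. Of 13 glycerolipid synthesis genes 6 rose and 3 fell with Tead2-EnR (46.2% and 23.1%, beside 20.3% and 18.1% of all genes), with Lpin1, a phosphatidate phosphatase, at 0.91, Dgat1, which makes triacylglycerol, at 0.52 and Agpat5 at -0.52. With Tead2-VP16, 0 of those 13 were called by limma (1 at an unadjusted p below 0.05), Agpat5 being at -0.12 and Agpat3 at 0.01, and the medians were 0.02 and 0.03. Of 20 glycogen genes 6 rose and 1 fell with Tead2-EnR (30% and 5%, beside 20.3% and 18.1% of all genes). In total 35% were called, beside 38.4%. Pgm1 was at 0.87, Ugp2 at 0.53 and Gabarapl1, which binds Stbd1, at 0.29. With Tead2-VP16 Ppp1r3d, a glycogen-targeting phosphatase subunit, rose (0.84) and Pgm2 fell (-0.34), or 10% beside 9.98%. The medians of the glycogen list were 0.05 and -0.02.

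The whey acidic protein family of Wfdc18 held several genes that moved as Wfdc18 did. Slpi was well above the median gene, and Wfdc12 was close to it. Wfdc3 (6.09), Wfdc21 (6.57) and Wfdc17 (6.64), which also rose with Tead2-EnR, had means below it. Wfdc3 and Wfdc21 were not called with Tead2-VP16 (adjusted p = 0.13 and 0.47 by limma). This list, like the others, was chosen with earlier results of these data known. Of 11 measured genes 5 rose and 1 fell with Tead2-EnR (45.5% and 9.09%), where 20.3% and 18.1% of all genes did. Slpi, a secreted protease inhibitor, rose by 2.62 ± 0.06 (SE), from 11.20 to 13.82 (adjusted p = 2.1e-09 by limma), Wfdc3 by 1.46 and Wfdc12 by 1.04. With Tead2-VP16, 3 fell and 0 rose, where 4.92% and 5.06% of all genes did, namely Wfdc12 (-0.65), Slpi (-0.27) and Wfdc17 (-0.37). The list medians were 0.06 and -0.22. The macrophage list also stood highest in Tead2-EnR cells, at 6.45 to 6.47 against 5.92 to 6.05 elsewhere, with Lyz2 and Cd14 the genes that differed most, and its part in this result was not tested.

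**Figure D4:**
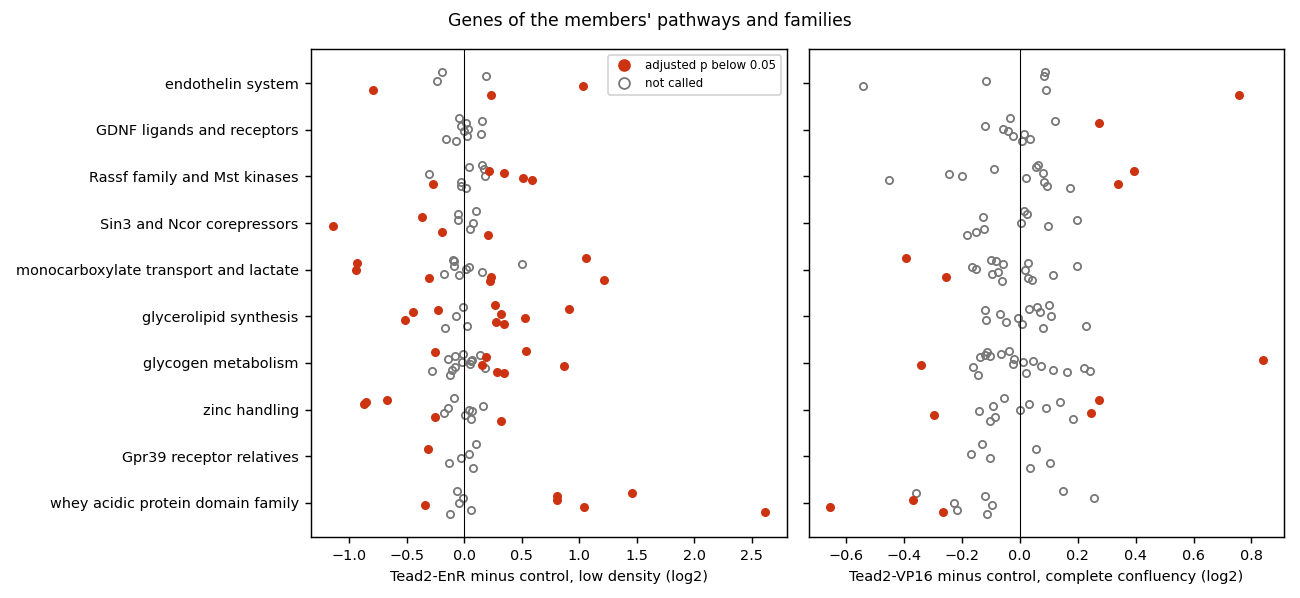
Log2 differences of the 117 measured relatives by list, with Tead2-EnR on the left and Tead2-VP16 on the right, filled where limma's adjusted p was below 0.05. The row labelled Sin3 and Ncor corepressors holds no Ncor gene. Slpi at 2.62 and Wfdc3 at 1.46 stand furthest to the right on the left side, and on the right side Ppp1r3d (0.84) and Ece1 (0.76) do.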

How the data were processed

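Total RNA was labelled with biotin and hybridised to Affymetrix arrays, per the labels' protocols. The deposited values are probe set intensities, and the submitters' processing notes name RMA, which normalizes arrays by quantiles and compresses large differences, with no version. They ran from 3.77 to 25980, a linear scale, so log2 was taken. Depth does not apply to arrays, and their number limits the precision. No detection calls were used.

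Probe sets took the symbol of the platform annotation, and the Entrez identifiers of 34741 of the 34945 single-symbol probe sets matched a mouse gene table, which changed 0 symbols; 932 probe sets with several symbols, 9160 with none and 64 controls were left out. A gene was represented by its probe set of highest mean intensity over all 12 arrays. All arrays were fitted together, 1 mean per group, with limma 3.58.1 in R 4.3.3 (residual degrees of freedom 6, prior 3.45). The tests were two-sided, and the Benjamini-Hochberg adjustment covered all 18193 genes. The code was tested on simulated data. Plots used Python 3.11.15 with matplotlib 3.10.9.

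The members and lists were chosen with earlier results of these data known. Named relatives were the up to 3 called genes of a list with the smallest adjusted p in a comparison, or the 2 with the highest level as values where none was called. For likeness the 2 genes with the highest Pearson r were named, unnamed clones left out. The alternatives were every probe set, the mean of probe sets, a replicate block, a robust prior with a variance trend, repeated quantile normalization, arrays centred on medians, a level filter, 16 added to the intensity, the 4 arrays of a comparison alone, and each array left out.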

Additional observations from a re-analysis of the deposited data

How the results depend on the processing

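The level filter removed Gpr39 and Gpat3. With the mean of its probe sets Slc16a1 moved from -0.999 to -0.56 with Tead2-EnR and from 1.11 to 0.59 with Tead2-VP16. With each array left out, called genes ranged from 5815 to 6248 for Tead2-EnR (6980 with all), 847 to 986 for Tead2-VP16 at confluency (1815) and 81 to 188 for Yap against Tead2-VP16 (367). Relatives called lay then between 20 and 29 higher and 14 and 16 lower for Tead2-EnR, and between 2 and 6 higher and 2 and 3 lower for Tead2-VP16, and 1 to 2 of the 9 genes were called between Yap and Tead2-VP16. The 4 arrays of a comparison alone gave 859 genes and 4 relatives higher for Tead2-VP16 and 78 genes for Yap against Tead2-VP16. Every probe set tested gave 11704 and 759 calls for Tead2-EnR and for Yap against Tead2-VP16. The variance trend gave 2795 genes and 11 relatives lower for Tead2-VP16, and for Yap against Tead2-VP16 1058 genes and 6 of the 9. For that last comparison the level filter gave 986 genes and 6 of the 7 tested, and 16 added to the intensity gave 711 genes and 5 of the 9. Calls gained there with the variance trend were Edn1, Gpr39 and Wfdc18 (adjusted p = 0.035, 0.0074 and 0.0046 by limma). The level filter added Edn1, Rassf5 and Wfdc18 (0.026, 0.024 and 0.011), and 16 added to the intensity Gpr39 and Wfdc18 (0.028 and 0.015). Slc16a1, not called there, turned from -0.02 to 0.025 without the second Tead2-VP16 array, the highest of its values with 1 array left out (lowest -0.0702). Arrays with the same replicate number shared little deviation (r of deviations -0.007, 0.084 and -0.048 in the 3 comparisons), which cannot show if they were made together. With the replicate block 6945, 1630 and 339 genes and 3 of the 9 were called.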
